A study of Mus musculus with 3 samples.

Results

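The Toll-like receptors *Tlr1*, *Tlr2*, *Tlr3*, *Tlr4*, *Tlr5*, *Tlr7*, and *Tlr9*, the coreceptors *Cd14* and *Ly96*, and the adaptor *Myd88* were measured across the immune, endothelial, stromal, and epithelial cells of the developing mouse lung. These 10 genes were chosen by their symbols from the 28692 genes of the count tables, with earlier results of these data known, and each was detected. The scRNA-Seq libraries came from whole lungs of 3 wild-type C57BL/6 mice at P14, numbered mice 2, 3, and 4, each kept in room air (RA) from P1. All 3 mice thus share strain, age, and exposure, no genotype or treatment differs between them, and the mice are the replicates. Transcripts were counted by their unique molecular identifiers (UMIs), tags given to a captured transcript before it is amplified, so that a UMI stands for 1 molecule. Levels are given as counts-per-million of the UMIs of a cell type in a mouse (CPM), as mean ± SD over mice (n = 3 unless stated). CPM from these 3′ libraries counts transcripts and not their length, so that levels compare cell types for 1 gene.

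Toll-like receptors bind molecules that microbes carry and damaged cells release. TLR1, TLR2, TLR4, and TLR5 act at the cell surface on lipoproteins (TLR2 with TLR1), lipopolysaccharide (TLR4), and flagellin (TLR5), while TLR3, TLR7, and TLR9 act in endosomes on double-stranded RNA, single-stranded RNA, and unmethylated CpG DNA. CD14 hands lipopolysaccharide to TLR4, and the product of *Ly96*, MD-2, is the part of the TLR4 complex that holds it. MYD88 carries the signal of all of these receptors except TLR3, which signals through TRIF (the product of *Ticam1*), toward NF-κB and the genes it induces.

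The libraries held 3034, 3135, and 3475 cells and between 22476491 and 25192427 UMIs. A filter that asked for 200 detected genes or more and for a mitochondrial share of UMIs no higher than 20% passed 7642 of 9644 cells, and 8 kept cells share a barcode with a cell of another library. Clusters were named from marker genes with the 10 genes and related genes left out of the clustering, and names such as neutrophil-like stand for that match only. They gave 3026 immune cells, 955 endothelial cells (ECs), 1538 stromal cells, and 1265 epithelial cells, with median UMIs per cell of 3862, 7607, 10526, and 16231, and 858 cells in 6 clusters remained unnamed. Immune cells were between 29.2% and 55.1% of a mouse's cells, highest in mouse 3, and B cell-like cells made up 1784 of the 3026. Of 21 named types, 20 had at least 10 cells in at least 2 mice and are described here. The *Col14a1* fibroblast-like cells (100 cells) were also led by the cartilage genes *Col2a1*, *Col10a1*, and *Acan*, which their name does not cover.

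*Tlr1* lies on chromosome 5 from 64924679 to 64933563 (GRCm38, GENCODE M21, minus strand), and *Tlr9* on chromosome 9 from 106222598 to 106226883 (plus strand). *Tlr5* lies on chromosome 1 from 182954788 to 182976044 (plus strand). *Tlr2* is on chromosome 3 (83836272 to 83841767), *Tlr4* on chromosome 4 (66827584 to 66930284), *Tlr7* on chromosome X (167304929 to 167330558), and *Ly96* on chromosome 1 (16688051 to 16709611). *Tlr3* on chromosome 8 (45395665 to 45411080) overlaps Gm45542 on the opposite strand. *Myd88* on chromosome 9 (119335934 to 119341411) overlaps Slc22a14 on the same strand and Acaa1a on the opposite strand, and whether reads were assigned by strand is not given in the sources used here. RefSeq promoter sequence was found for 6 of the 10 genes. The 250 bases upstream of a start site are shown for *Tlr1* and *Tlr9*, the receptors with most of their UMIs in B cell-like cells. Capitals mark GAGGAA, a sequence bound by the ETS factor PU.1 and not the core of all ETS factors (RefSeq on GRCm38.p6, 5′ to 3′ on the strand of the gene).
*Tlr1* promoter, chr5:64933559-64933808, minus strand: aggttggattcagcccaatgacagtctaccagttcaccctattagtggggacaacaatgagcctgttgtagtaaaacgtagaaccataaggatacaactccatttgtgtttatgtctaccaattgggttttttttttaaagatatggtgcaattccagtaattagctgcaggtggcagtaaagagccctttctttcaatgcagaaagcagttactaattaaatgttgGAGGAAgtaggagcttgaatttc
*Tlr9* promoter, chr9:106222348-106222597, plus strand: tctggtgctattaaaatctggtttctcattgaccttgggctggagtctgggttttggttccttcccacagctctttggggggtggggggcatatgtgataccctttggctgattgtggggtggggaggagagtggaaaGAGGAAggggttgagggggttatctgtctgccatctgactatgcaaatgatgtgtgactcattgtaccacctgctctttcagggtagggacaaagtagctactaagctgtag
Both strands were searched. GAGGAA is found in 1 window each of *Tlr1* and *Tlr9* and in no window of *Tlr2*, *Tlr3*, *Tlr5*, or *Myd88*, and in 23.3% of all 32851 windows of this length. Another *Tlr1* window, without a match, had 211 of its 250 bases in exons. The *Tlr2* and *Tlr3* windows had 159 and 178 bases in exons, so much of what was searched there is exon sequence. A match describes the letters of the window and is not a site of binding.

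The 10 genes differed in abundance and in spread over the lung. *Cd14* had 3061 UMIs in the kept cells, *Myd88* 1581, *Tlr2* 1050, *Tlr3* 678, *Tlr4* 629, *Ly96* 624, *Tlr1* 618, *Tlr5* 179, *Tlr7* 141, and *Tlr9* 56. *Myd88* and *Ly96* had UMIs in all 20 types, and *Tlr4* in every type except 1. *Tlr7* was without a UMI in 14 of the 20 types and *Tlr9* in 17. Immune cells held 587 of the 618 *Tlr1* UMIs, 86.1% of those of *Tlr2*, and 93.6% of those of *Tlr7*. *Cd14* had 70.8% of its UMIs there and 26.8% in epithelial cells.

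**Figure D1:**
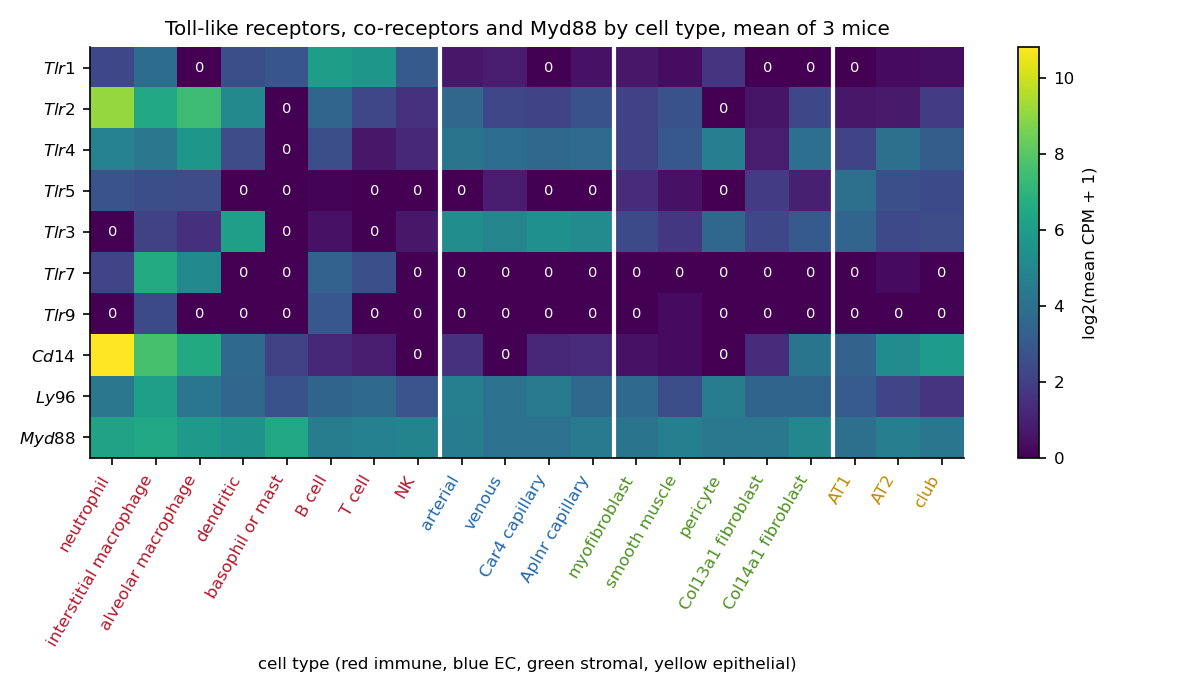
Level of each of the 10 genes (rows) in the 20 named cell types (columns), as log2 of the mean CPM of the mice plus 1, with 0 printed where a type had no UMI of the gene. *Cd14* in neutrophil-like cells is the highest level (1795 CPM), and *Tlr9* is seen in 3 types.

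Between the 4 classes, the question was where in the lung each gene was highest. *Tlr1*, *Tlr2*, *Tlr7*, *Tlr9*, *Cd14*, and *Myd88* were higher in immune cells than in each other class, *Tlr3* was highest in ECs, *Tlr5* in epithelial cells, and *Tlr4* and *Ly96* had no class that passed the test against all of the others (with the mouse as a block, described below, *Tlr4* in epithelial cells did). UMIs summed per mouse and class were compared in edgeR (quasi-likelihood), p was adjusted over 14210 genes by the Benjamini-Hochberg method, and the threshold was an adjusted p of 0.05.

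*Tlr1*, the partner of TLR2 for triacylated lipoproteins, was at 37.6, 39.8, and 50.1 CPM in the immune cells of mice 2, 3, and 4 and at 0.237 to 0.443 CPM on average in the other classes. *Tlr2* was at 49.5, 65.8, and 77.2 CPM in immune cells, 6.02 ± 0.947 in ECs, 3.47 ± 0.745 in stromal cells, and 0.936 ± 0.354 in epithelial cells. For both receptors every immune value was above every other value. The log2 fold change of immune cells against ECs was 6.83 for *Tlr1* (SE 0.43, edgeR adjusted p = 1.37e-09) and 3.66 for *Tlr2* (SE 0.20, edgeR adjusted p = 2.54e-10). *Cd14* was at 142, 145, and 186 CPM in immune cells and at 37.4, 35.5, and 35.7 CPM in epithelial cells. It was at 1.57 ± 0.845 CPM in ECs, and in stromal cells at 0.333, 7.13, and 0.474 CPM, with the high value in mouse 3. Immune cells thus exceeded epithelial cells in *Cd14* by 1.88 on the log2 scale (SE 0.25, edgeR adjusted p = 6.04e-06). With DESeq2 this adjusted p was 0.0541.

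The endosomal receptors *Tlr7* and *Tlr9* were at 11.6, 7.31, and 11.2 CPM and at 2.04, 3.73, and 5.71 CPM in the immune cells of mice 2, 3, and 4. ECs and stromal cells had no *Tlr7* UMI, and ECs and epithelial cells no *Tlr9* UMI. Against a floor of 3 counts over the group, *Tlr7* was at least 30.5-fold higher in immune cells than in ECs and at least 55.5-fold higher than in stromal cells. *Tlr9* was at least 12.5-fold higher than in ECs and at least 29.2-fold higher than in epithelial cells. *Tlr3*, the third endosomal receptor, was highest in ECs, with 36.0, 37.5, and 35.0 CPM in the 3 mice. It was at 8.62 ± 2.19 CPM in immune, 5.07 ± 0.435 in epithelial, and 4.50 ± 1.36 in stromal cells, and no EC value overlapped another class. The log2 fold change of ECs was 2.89 against stromal cells (SE 0.21, edgeR adjusted p = 1.29e-08) and 2.33 against epithelial cells (SE 0.20, edgeR adjusted p = 6.1e-08), and immune cells were lower than ECs by 1.86 (SE 0.20, edgeR adjusted p = 7.74e-07).

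*Tlr5*, the flagellin receptor, was at 5.83, 5.68, and 7.01 CPM in epithelial cells. Stromal cells had 2.33, 0.578, and 1.11 CPM, immune cells 0.836 ± 0.222, and ECs 1 UMI in all. Epithelial cells were higher than stromal cells (stromal against epithelial, log2 fold change -2.53, SE 0.37) and than immune cells (immune against epithelial, -3.06, SE 0.42, edgeR adjusted p = 9.81e-06). *Tlr4*, the lipopolysaccharide receptor, was at 12.6, 16.0, and 11.5 CPM in ECs and at 12.5, 13.9, and 11.4 CPM in epithelial cells, which overlap. Immune cells had 7.28, 10.3, and 6.45 CPM and stromal cells 5.66 ± 0.477. *Tlr4* was higher in ECs than in stromal cells (log2 fold change 1.10, SE 0.20, edgeR adjusted p = 0.00028) and lower in immune than in epithelial cells (-0.84, SE 0.18, edgeR adjusted p = 0.000688). Immune cells against ECs missed the threshold at -0.43 (SE 0.20, edgeR adjusted p = 0.0694), and passed it with the mouse as a block, a fit that pairs the sums of each animal (-0.46, edgeR adjusted p = 0.0315), and without TMM, the scaling between the summed libraries (-0.68). ECs against epithelial cells had a *Tlr4* log2 fold change of -0.41 without the block (SE 0.18, edgeR adjusted p = 0.0585) and with it (edgeR adjusted p = 0.0279), although the mean CPM was 13.4 in ECs and 12.6 in epithelial cells. TMM by itself shifts every gene of this comparison by -0.48, and without it the difference was 0.08 (edgeR adjusted p = 0.731). *Ly96* was at 18.5, 14.8, and 16.1 CPM in ECs and 12.8, 11.2, and 13.7 CPM in immune cells, with no overlap and a log2 fold change of immune cells of -0.16 (SE 0.16, edgeR adjusted p = 0.389). Without TMM it was -0.41 and was called (edgeR adjusted p = 0.0334). It was lowest in epithelial cells, at 4.11 ± 0.0716 CPM, where *Tlr4* was not.

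*Myd88* had the narrowest range of class means relative to its level. It was at 34.6, 34.2, and 34.3 CPM in immune cells, 21.8 ± 1.32 in epithelial cells, 20.5 ± 0.970 in ECs, and 20.3 ± 0.944 in stromal cells. Immune cells were higher than ECs by 0.99 on the log2 scale (SE 0.10, edgeR adjusted p = 3.37e-07). ECs were called lower than epithelial cells (-0.57, SE 0.10, edgeR adjusted p = 0.000128), and stromal cells too (-0.47, SE 0.09, edgeR adjusted p = 0.000325). Both of these calls came with the TMM scaling of the summed libraries, which by itself shifts all genes of these comparisons by -0.48 and -0.37. Without it the differences were -0.08 (edgeR adjusted p = 0.536) and -0.10 (edgeR adjusted p = 0.402). The shift of the 3 immune comparisons was 0.25 against ECs, 0.14 against stromal cells, and -0.23 against epithelial cells.

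**Figure D2:**
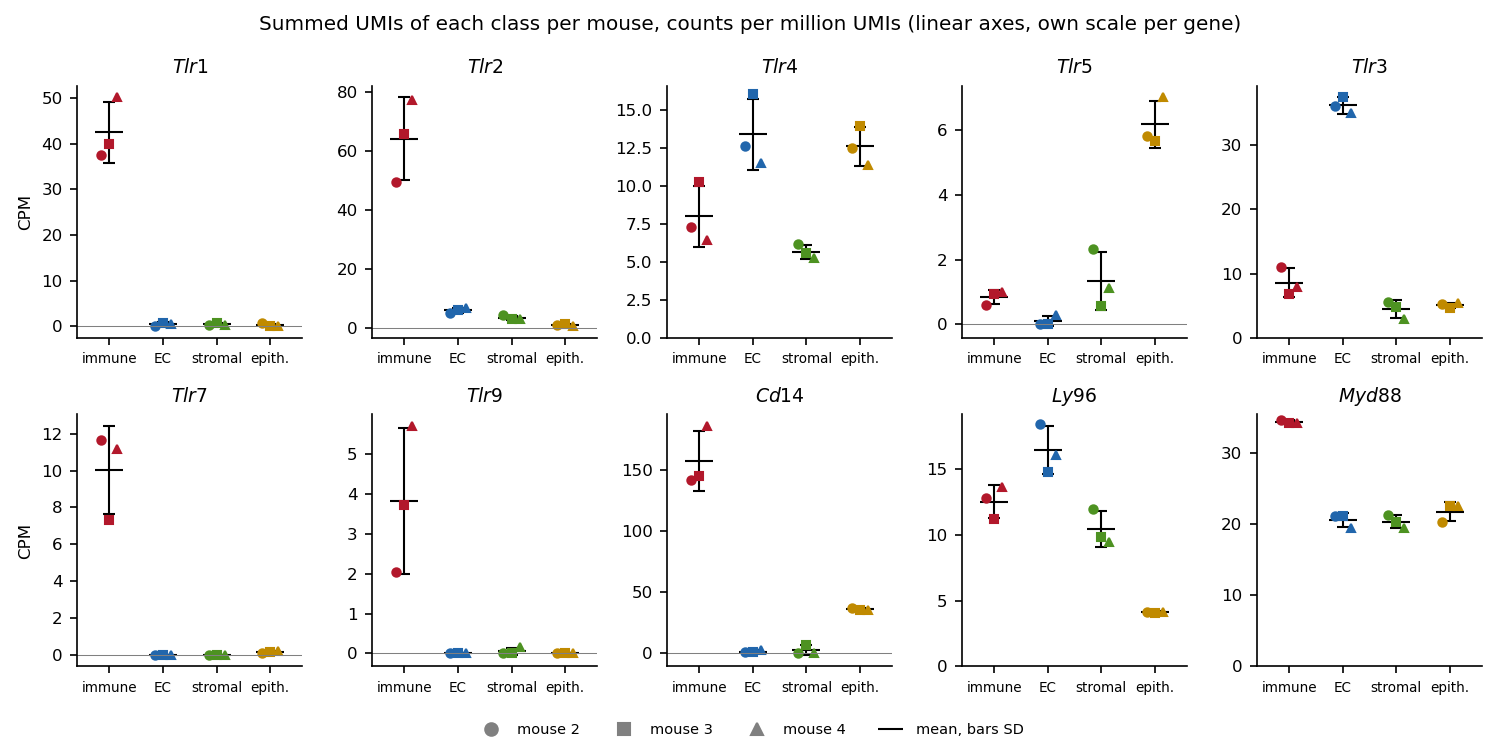
CPM of each gene (1 panel per gene) in immune cells, ECs, stromal cells, and epithelial cells, with 1 point per mouse and the mean ± SD of the 3 mice. *Tlr3* is highest in ECs (36.2 CPM), *Tlr5* in epithelial cells (6.17 CPM), and *Myd88* spans 20.3 to 34.4 CPM.

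The list was chosen with earlier results of these data known, so counts over it describe the 10 genes and are not a test of them. Counted over the list, 7 of the 10 genes were higher and 1 lower in immune cells than in ECs, where 35.3% and 34.1% of all genes tested were higher and lower (2 lower with the mouse as a block). Against stromal cells 9 were higher and 0 lower (37.4% and 39.1% of all genes), and *Tlr5* did not pass the test (-0.52, SE 0.54, edgeR adjusted p = 0.388). The call of *Ly96* there (0.39, SE 0.16, edgeR adjusted p = 0.0404) held in 7 of 15 alternatives and was lost without TMM, with DESeq2, and without mouse 2 (0.47), mouse 3 (0.44), or mouse 4 (0.25). Against epithelial cells 7 were higher and 2 lower (37.5% and 37.9%). The median log2 fold change of the 10 genes was 3.33 against ECs, 2.68 against stromal cells, and 1.62 against epithelial cells, where the medians of all genes were 0.02, -0.02, and -0.00. With *Tlr7* and *Tlr9* at the bound that 3 counts allow, the first of these was 3.32, and the other 2 did not move. ECs were higher than stromal cells in 3 genes and lower in 1 (24.6% and 31.3% of all genes). They were higher than epithelial cells in 3 and lower in 3 (33.7% and 32.6%), or lower in 4 with the mouse as a block, the added gene being *Tlr4*, whose call depends on TMM as given above. Stromal cells were higher than epithelial cells in 2 genes and lower in 5 (35.9% and 31.3%). With the mouse as a block, *Tlr7* was lost from these 5 (edgeR adjusted p = 0.0543) and *Tlr3* gained (-0.57, edgeR adjusted p = 0.0455). When each type in a class had equal weight, in place of each cell, 8 genes were tested, *Tlr5* and *Tlr9* not among them, and fewer were called. Immune cells were then higher in 1 gene and lower in 2 against ECs. The counts were 1 and 1 against stromal cells and 2 and 2 against epithelial cells. The shares of all genes called in this setting are not given here. *Cd14* and *Tlr3* against epithelial cells turned to -1.51 and -3.08 and *Tlr3* against stromal cells to -2.51 on the log2 scale.

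Within the immune cells, *Cd14*, *Tlr2*, *Tlr4*, and *Ly96* were highest in myeloid types. *Cd14* in neutrophil-like cells (466 cells) was at 1829, 1648, and 1908 CPM. Interstitial macrophage-like cells had 98.6, 188, and 312 CPM and alveolar macrophage-like cells 86.3, 76.8, and 118 CPM, and these 2 types overlap. The interstitial macrophage-like level rests on 80 UMIs found in 18 of 116 cells. Neutrophil-like cells held 65.6% of all *Cd14* UMIs. A *Cd14* UMI was found in 58.9% ± 1.04% of neutrophil-like cells (median 2133 UMIs per cell) and in 0.513% of T cell-like cells (median 5909 UMIs), which should lack the gene. With each cell thinned to 1000 UMIs, the shares were 52.3% ± 1.90% and 0.104%.

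*Tlr2* followed the order neutrophil-like (412, 606, and 642 CPM), alveolar macrophage-like (149, 174, and 189 CPM), and interstitial macrophage-like (69.0, 119, and 71.6 CPM), with no overlap between neighbors, and dendritic-like cells came next at 46.2, 17.3, and 35.3 CPM. *Tlr4* had another order. Alveolar macrophage-like cells (71 cells) were highest at 47.1, 56.3, and 52.2 CPM from 25 UMIs in all, and neutrophil-like cells had 24.2, 39.4, and 16.9 CPM. The former lay above the latter in each mouse, and the neutrophil-like range overlapped that of interstitial macrophage-like cells (18.3 CPM on average). *Tlr1*, the partner of *Tlr2*, had 0 UMIs in alveolar macrophage-like cells, and B cell-like cells were at least 10.1-fold higher. No neutrophil-like cell had UMIs of both *Tlr2* and *Tlr1*, with 252 and 5 of the 466 cells positive for each. *Cd14* was found in 275 of the cells, 163 of them also with *Tlr2*. Whether these counts differ from what the separate shares would give was not tested.

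*Ly96* was highest in interstitial macrophage-like cells, at 88.7, 68.2, and 45.6 CPM from 24 UMIs, above each of the other 19 types. *Myd88* was at 108, 68.2, and 84.6 CPM in the same cells, at 60.6, 92.0, and 70.4 CPM in neutrophil-like cells, and at 54.9 ± 21.0 CPM in alveolar macrophage-like cells, which overlap. Basophil- or mast-like cells had 87.3 ± 25.3 CPM of *Myd88*, but from 16 UMIs, and mouse 2 had 6 such cells and was left out of their test. No member was called there by edgeR or DESeq2 (1 of 8, *Tlr2*, at an unadjusted edgeR p under 0.05), where 9.52% of all genes were.

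**Figure D3:**
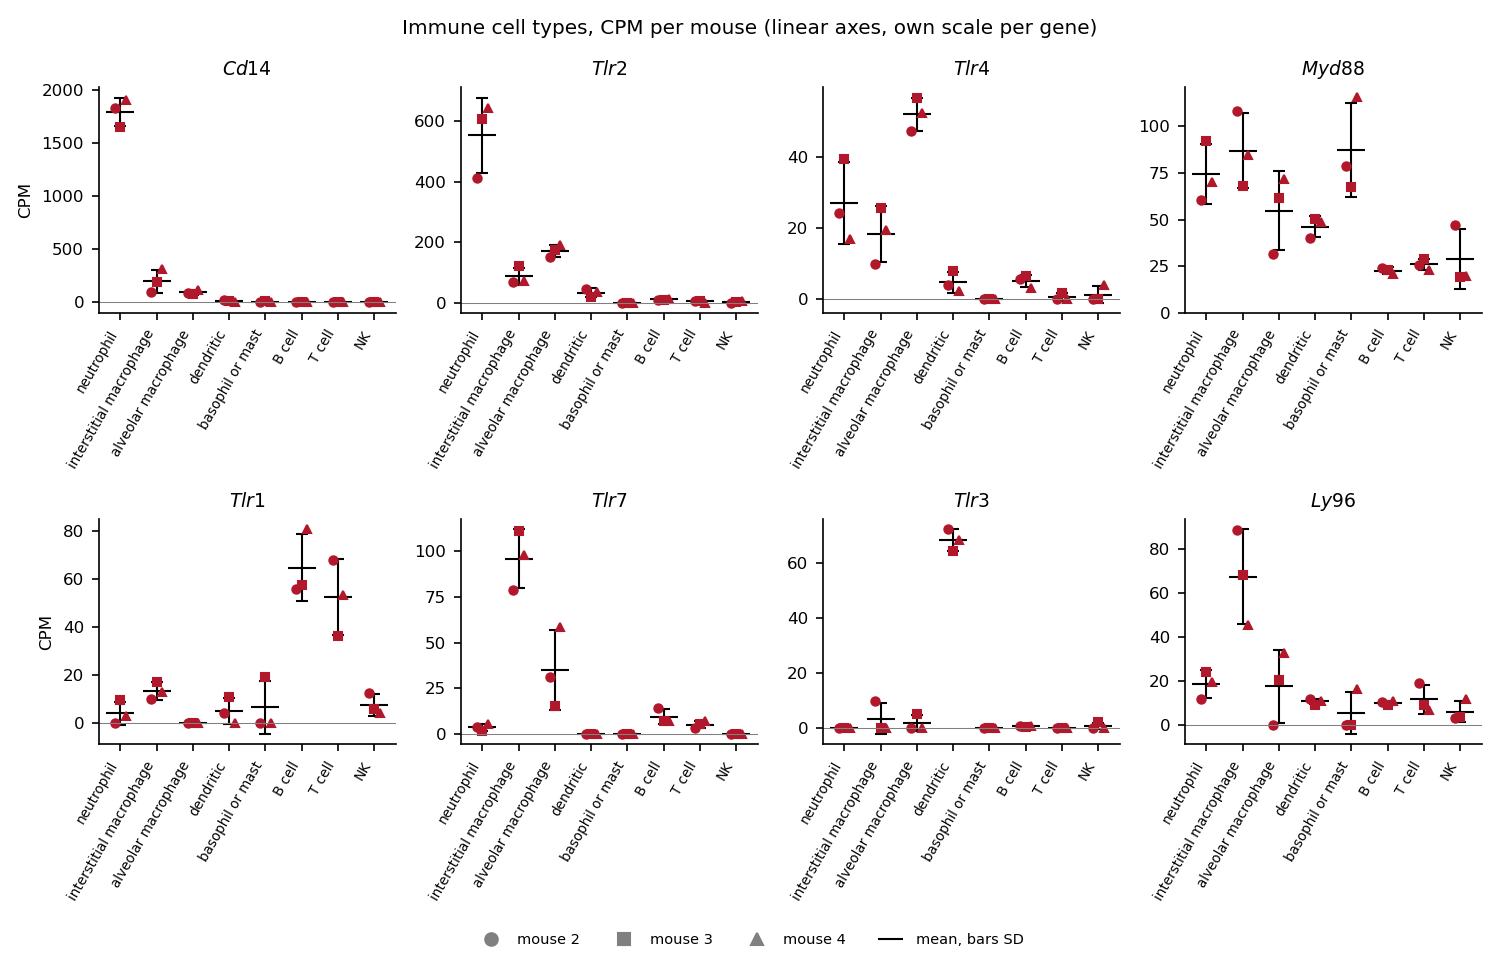
CPM of 8 of the genes in 8 immune cell types, with 1 point per mouse and the mean of the mice. *Cd14* and *Tlr2* are highest in neutrophil-like cells, *Tlr4* in alveolar macrophage-like cells, *Tlr7* and *Ly96* in interstitial macrophage-like cells, *Tlr1* in B cell- and T cell-like cells, and *Tlr3* in dendritic-like cells.

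Each type was compared with the mean of the other types of its class in 1 fit over 60 sums per mouse and type, in which 8 of the 10 genes were tested. *Tlr5* and *Tlr9* did not pass the filter on low counts. Neutrophil-like cells were higher in *Cd14* (log2 fold change 9.01, SE 0.21, edgeR adjusted p = 6.63e-37), *Tlr2* (6.72, SE 0.20), *Tlr4* (3.93, SE 0.48), *Myd88* (1.61, SE 0.20), and *Ly96* (1.46, SE 0.39, edgeR adjusted p = 0.00191). That is 5 of 8 higher and 0 lower, where 23.8% and 11.8% of all genes were. The *Ly96* call was lost without mouse 3 (0.82, edgeR adjusted p = 0.284) and without TMM (0.66, edgeR adjusted p = 0.157), which shifts this comparison by 0.79. A mean over types that had 0 UMIs makes these folds depend on the fit. For calls in single types, mice whose removal ended the call are given below, where fewer sums are also left to test. The number of alternatives that kept a call is given for some calls only, and its absence does not mean that all alternatives kept the call.

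Interstitial macrophage-like cells (116 cells, median 1931.5 UMIs) were higher in *Tlr7* (5.74, SE 0.58, edgeR adjusted p = 1.43e-08), *Cd14* (4.41, SE 0.50), *Ly96* (2.30, SE 0.39), and *Tlr2* (2.54, SE 0.56, edgeR adjusted p = 0.000596), with 0 lower, where 9.74% and 3.36% of all genes were. The *Tlr2* call was lost without mouse 3 (1.22), and against all other immune cells summed, a comparison chosen after the data had been seen, those of *Tlr2* (0.27) and *Cd14* (0.29) were lost. *Tlr7*, the receptor for single-stranded RNA, was at 78.9, 111, and 97.6 CPM there, at 31.4, 15.4, and 58.8 CPM in alveolar macrophage-like cells, and at 14.4, 7.17, and 7.39 CPM in B cell-like cells. None of these 3 ranges overlap, but the alveolar macrophage-like level rests on 16 UMIs. Set directly against interstitial macrophage-like cells, it missed the threshold (-1.23, SE 0.53, edgeR adjusted p = 0.136). The abundant B cell-like cells held 48.9% of the *Tlr7* UMIs and interstitial macrophage-like cells 25.5%. Alveolar macrophage-like cells were higher in *Tlr7* (4.33, SE 0.74), *Tlr4* (4.13, SE 0.52, edgeR adjusted p = 5.61e-09), *Tlr2* (3.97, SE 0.38), and *Cd14* (3.34, SE 0.62), and lower in *Tlr1*, which was at 0 (edgeR adjusted p = 0.0203), a call lost with any 1 of mice 2, 3, and 4 left out. Of all genes, 13.7% were higher and 9.75% lower. Against all other immune cells summed, *Cd14* in alveolar macrophage-like cells turned to -0.68, where the sum holds the neutrophil-like cells.

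Set directly against interstitial macrophage-like cells, alveolar macrophage-like cells were higher in *Tlr2* (1.26, SE 0.36, edgeR adjusted p = 0.0103) and *Tlr4* (1.73, SE 0.56, edgeR adjusted p = 0.027) and lower in *Ly96* (-1.52, SE 0.52, edgeR adjusted p = 0.0393), where 6.63% and 7.56% of all genes were higher and lower. With any 1 of mice 2, 3, and 4 left out, 1 of the 3 calls remained past the threshold, and without TMM *Tlr4* missed it (1.47, edgeR adjusted p = 0.0717).

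*Tlr1* was highest in B cell- and T cell-like cells. B cell-like cells were at 55.8, 57.6, and 80.8 CPM and T cell-like cells at 68.0, 36.1, and 53.2 CPM, which overlap, and both lay above every other type, NK-like cells among them (7.42 ± 4.57 CPM, 8 UMIs). *Tlr1* was higher in B cell-like cells (3.62, SE 0.33, edgeR adjusted p = 1.48e-12) and in T cell-like cells (2.87, SE 0.46, edgeR adjusted p = 3.29e-06) than in the mean of the other immune types. The call in T cell-like cells was lost with clustering at a resolution of 0.4 (0.12). B cell-like cells held 79.8% of its UMIs. A *Tlr1* UMI was found in 22.9% of B cell-like cells and 25.5% of T cell-like cells, against 0.381% of AT2-like cells, which are more deeply sequenced (median 16207 UMIs). *Tlr7* was also called higher in B cell-like cells (2.36, SE 0.68, edgeR adjusted p = 0.00541), but not with DESeq2 (0.99) or without mouse 2 (1.93), mouse 3 (1.73), or mouse 4 (1.92). Against all other immune cells summed, its log2 fold change was -0.22. *Myd88* was lower in B cell-like cells (-1.06, SE 0.17, edgeR adjusted p = 3.33e-07), T cell-like cells (-1.16, SE 0.25), and NK-like cells (-1.05, SE 0.26). The called counts were 2 higher and 1 lower in B cell-like cells (34.4% and 8.51% of all genes), 1 and 1 in T cell-like cells (16.9% and 6.55%), and 0 and 3 in NK-like cells (14.4% and 7.94%), the last also with *Ly96* (-1.60, SE 0.56, edgeR adjusted p = 0.0306) and *Cd14* at 0 UMIs. In NK-like cells the *Ly96* call held in 7 of 12 alternatives and was lost without TMM (-1.43), mouse 2 (-1.35), or mouse 3 (-1.50). The *Cd14* call held in 8 of 12 and was lost without mouse 4, and the *Myd88* call held in 9 of 12 and was lost without mouse 3 (-0.55) or mouse 4 (-0.76).

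*Tlr9*, the receptor for CpG DNA, had 52 of its 56 UMIs (92.9%) in the abundant B cell-like cells. Mice 2, 3, and 4 had 7, 24, and 21 of them, or 3.87, 6.37, and 9.70 CPM. Interstitial macrophage-like cells had 2 *Tlr9* UMIs and smooth muscle-like cells 1. Dendritic-like cells had 0 of 182 cells with a *Tlr9* UMI, which allows a share of cells with a UMI of up to 1.65% and says nothing of expression below this depth. B cell-like cells formed clusters of 972 and 812 cells, with 37 and 15 *Tlr9* UMIs (9.77 and 3.79 CPM), 6.08 and 11.6 CPM of *Tlr7*, and 54.9 and 72.1 CPM of *Tlr1*. The clusters were not tested against each other.

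*Tlr3*, which recognizes double-stranded RNA, was highest of all types in dendritic-like cells (182 cells), at 72.3, 64.4, and 68.4 CPM. No value of another type reached that range. The log2 fold change was 7.25 (SE 0.39, edgeR adjusted p = 7.82e-21), the only call among the 8 genes, with 20.6% of all genes higher and 5.72% lower. Neutrophil-like and T cell-like cells had no *Tlr3* UMI, so that dendritic-like cells were at least 25.8-fold and 29.4-fold higher. *Ticam1*, which encodes the adaptor that TLR3 uses, was also higher in dendritic-like cells (1.91, SE 0.38, edgeR adjusted p = 7.2e-05).

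Outside the immune cells, *Tlr3* was present in each of the 4 types of blood vessel ECs. *Car4* capillary-like ECs had 35.9, 51.9, and 37.3 CPM, arterial-like ECs 43.9, 34.2, and 39.1 CPM, *Aplnr* capillary-like ECs 35.9, 37.5, and 34.8 CPM, and venous-like ECs 29.7 ± 3.00 CPM. The first 3 types overlap, and none of the 4 passed the test for *Tlr3*. *Tlr2* in ECs was highest in arterial-like cells (10.7 CPM). *Ly96* was at 37.9, 12.8, and 22.4 CPM in arterial-like and 19.0, 24.9, and 21.0 CPM in *Car4* capillary-like ECs. It was lower in *Aplnr* capillary-like ECs than in the mean of the other EC types (-0.81, SE 0.26, edgeR adjusted p = 0.0346), where 7.79% of all genes were higher and 3.44% lower. This call held in 5 of 13 alternatives and was lost without mouse 2 (-0.88), mouse 3 (-0.73), or mouse 4 (-0.85). Of the 8 genes, edgeR called 0 in arterial-, venous-, and *Car4* capillary-like ECs, where 14.6%, 12.9%, and 15.9% of all genes were called. At an unadjusted p under 0.05 it had *Tlr2* and *Ly96* in arterial-like ECs and 0 in the other two, and DESeq2 called *Tlr2* in arterial-like ECs alone.

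In stromal cells, pericyte-like cells had the highest mean level of the lipopolysaccharide receptor. *Tlr4* was at 34.5, 12.3, and 23.7 CPM in them (log2 fold change 2.49, SE 0.44, edgeR adjusted p = 8.24e-06), and *Ly96* at 28.7, 18.5, and 19.8 CPM (1.26, SE 0.40, edgeR adjusted p = 0.0139), while *Cd14* had UMIs in 0 of 133 cells (a share of cells with a UMI of up to 2.26% is allowed). Their *Tlr4* level rests on 20 UMIs, and its range overlapped that of *Col14a1* fibroblast-like cells (14.4 CPM on average, also from 20 UMIs). The *Tlr4* call in pericyte-like cells was lost without mouse 2 (1.92). Their *Ly96* call held in 10 of 13 alternatives and was lost with the stricter cell filter and without mouse 2 (1.05) or mouse 4 (1.27). These were 2 of 8 genes higher and 0 lower, with 11.6% and 11.4% of all genes. *Tlr4* was also higher in *Col14a1* fibroblast-like cells (1.59, SE 0.42, edgeR adjusted p = 0.00302), as was *Myd88* (0.73, SE 0.26, edgeR adjusted p = 0.0308), and *Tlr4* was lower in *Col13a1* fibroblast-like cells (-3.20, SE 0.63, edgeR adjusted p = 6.23e-05). With *Cd14*, described next, the former had 3 of 8 genes higher and 0 lower (15.8% and 6.95% of all genes) and the latter 0 higher and 1 lower (14.7% and 10.2%). In *Col14a1* fibroblast-like cells the *Tlr4* call was lost without mouse 2 (1.59) or mouse 4 (1.40), and the *Myd88* call held in 8 of 13 alternatives and was lost without TMM (0.61), mouse 2 (0.59), mouse 3 (0.86), or mouse 4 (0.77).

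*Cd14* in *Col14a1* fibroblast-like cells was called higher, but all 33 UMIs were in mouse 3 (0, 51.9, and 0 CPM). They came from 4 cells, 25 of them from 1 cell with 29044 UMIs, 250 of these from neutrophil markers, which was not marked as a doublet. Without that cell mouse 3 was at 13.2 CPM, and without mouse 3 the log2 fold change was -1.73, no longer called. The high stromal value of mouse 3 given above for *Cd14* includes these cells, and without mouse 3 ECs were higher than stromal cells in *Cd14* (2.10, edgeR adjusted p = 0.0193). Smooth muscle-like cells were higher in *Tlr2* (2.44, SE 0.75, edgeR adjusted p = 0.0109), with 23 UMIs where the ratio of *Tlr2* to neutrophil markers in neutrophil-like cells would give 3.40 for their 549 neutrophil marker UMIs. The source of these *Tlr2* UMIs was not tested. *Tlr2* was at 5.56 CPM on average in smooth muscle-like cells. Their range overlapped those of *Col14a1* fibroblast-like (4.01 CPM) and myofibroblast-like cells (3.29 CPM), and the mean of the other types includes pericyte-like cells, with 0 UMIs. Smooth muscle-like cells were lower in *Ly96* (-1.30, SE 0.33) and *Tlr3* (-1.31, SE 0.41, edgeR adjusted p = 0.0156), so that 1 gene was higher and 2 lower (15.2% and 9.97% of all genes). The *Tlr2* call was lost without mouse 3 (2.45) or mouse 4 (1.96), that of *Ly96* without mouse 2 (-1.07), and that of *Tlr3* without mouse 2 (-1.08) or mouse 3 (-1.07). *Myd88* was lower in myofibroblast-like cells (-0.55, SE 0.19, edgeR adjusted p = 0.0276), the 1 gene called there, with 12.6% of all genes higher and 8.94% lower. It held in 7 of 13 alternatives and was lost without TMM (-0.46), mouse 3 (-0.59), or mouse 4 (-0.36).

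Among the epithelial types, *Tlr4* had its highest CPM in AT2-like and *Tlr5* in AT1-like cells. AT2-like cells (1051 cells), which make surfactant, had 14.7 ± 0.303 CPM of *Tlr4* from 254 UMIs, and the log2 fold change against the mean of the other epithelial types was 1.73 (SE 0.30, edgeR adjusted p = 5.64e-06). AT1-like cells (166 cells), the thin gas exchange cells, were lower in *Tlr4* (-2.32, SE 0.46, edgeR adjusted p = 5.59e-05). *Tlr5* instead was at 11.8, 18.0, and 14.4 CPM in AT1-like cells, at 5.09, 4.84, and 5.56 CPM in AT2-like cells (90 UMIs), and at 4.42 CPM in club-like cells. The AT1-like range overlapped no other type. Neutrophil-like cells came next at 5.72 CPM on average, but from 7 UMIs, and their range overlapped that of AT2-like cells. Interstitial and alveolar macrophage-like cells had 5.01 and 4.79 CPM on average, from 2 UMIs each. A *Tlr5* UMI was found in 32 of 166 AT1-like cells (19.3%), 84 of 1051 AT2-like cells (7.99%), and 0 of 204 T cell-like cells (a share with a UMI of up to 1.47% is allowed), and with cells thinned to 1000 UMIs in 1.13% ± 0.0151% and 0.514% ± 0.0559%. *Tlr5* was not in the fit over types, so this difference was not tested. The more abundant AT2-like cells held 50.3% of the *Tlr5* UMIs and AT1-like cells 21.8%. The clusters of AT1-like cells (129 and 37 cells) had 18.0 and 11.1 CPM.

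*Cd14* was at 78.1, 56.4, and 50.6 CPM in club-like cells (48 cells), secretory cells of the airway, and at 35.5, 35.7, and 38.0 CPM in AT2-like cells. Of the 48 club-like cells (median 38565 UMIs), 8 were marked as doublets. Club-like cells were higher than the mean of the other epithelial types (1.96, SE 0.30, edgeR adjusted p = 3.46e-07) and AT1-like cells lower (-2.47, SE 0.37, edgeR adjusted p = 2.84e-07). AT2-like cells held 631 *Cd14* UMIs. At the ratio of *Cd14* to neutrophil markers in neutrophil-like cells, their 886 neutrophil marker UMIs would come with 15.1, and club-like cells had 158 *Cd14* UMIs where this ratio gives 0.681. The ratio covers neutrophil RNA only, and the source of these UMIs was not tested. AT2-like cells held *Cd14* in 38.5% ± 1.98% of cells, or 3.56% ± 0.364% when thinned, above the 0.104% of T cell-like cells. In the counts of called genes, AT1-like cells had 1 higher and 3 lower (16.2% and 16% of all genes), AT2-like cells 2 and 1 (16.7% and 16.3%), and club-like cells 2 and 0 (20.7% and 16.8%). The remaining calls were *Tlr3* higher in AT1-like (1.00, SE 0.33) and lower in AT2-like cells (-0.78, SE 0.30), *Myd88* lower in AT1-like (-0.78, SE 0.25) and higher in AT2-like cells (0.51, SE 0.18), and *Tlr2* higher in club-like cells (2.18, SE 0.86, edgeR adjusted p = 0.0408). Each of these 5 calls was lost with some single mouse left out. Fewer sums are then left to test, and not every log2 fold change shrank. In AT1-like cells *Tlr3* was lost without mouse 2 (1.08) or mouse 4 (0.72), and *Myd88* without mouse 2 (-0.52), with doublets left out (-0.66), or without TMM (-0.44), which shifts this comparison by -0.34. In AT2-like cells *Tlr3* was lost without mouse 2 (-0.80) or mouse 4 (-0.36) and *Myd88* without mouse 2 (0.54) or mouse 3 (0.37). In club-like cells *Tlr2* was lost without mouse 2 (2.23), mouse 4 (1.71), or TMM (1.86), and its level there rests on 7 UMIs.

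**Figure D4:**
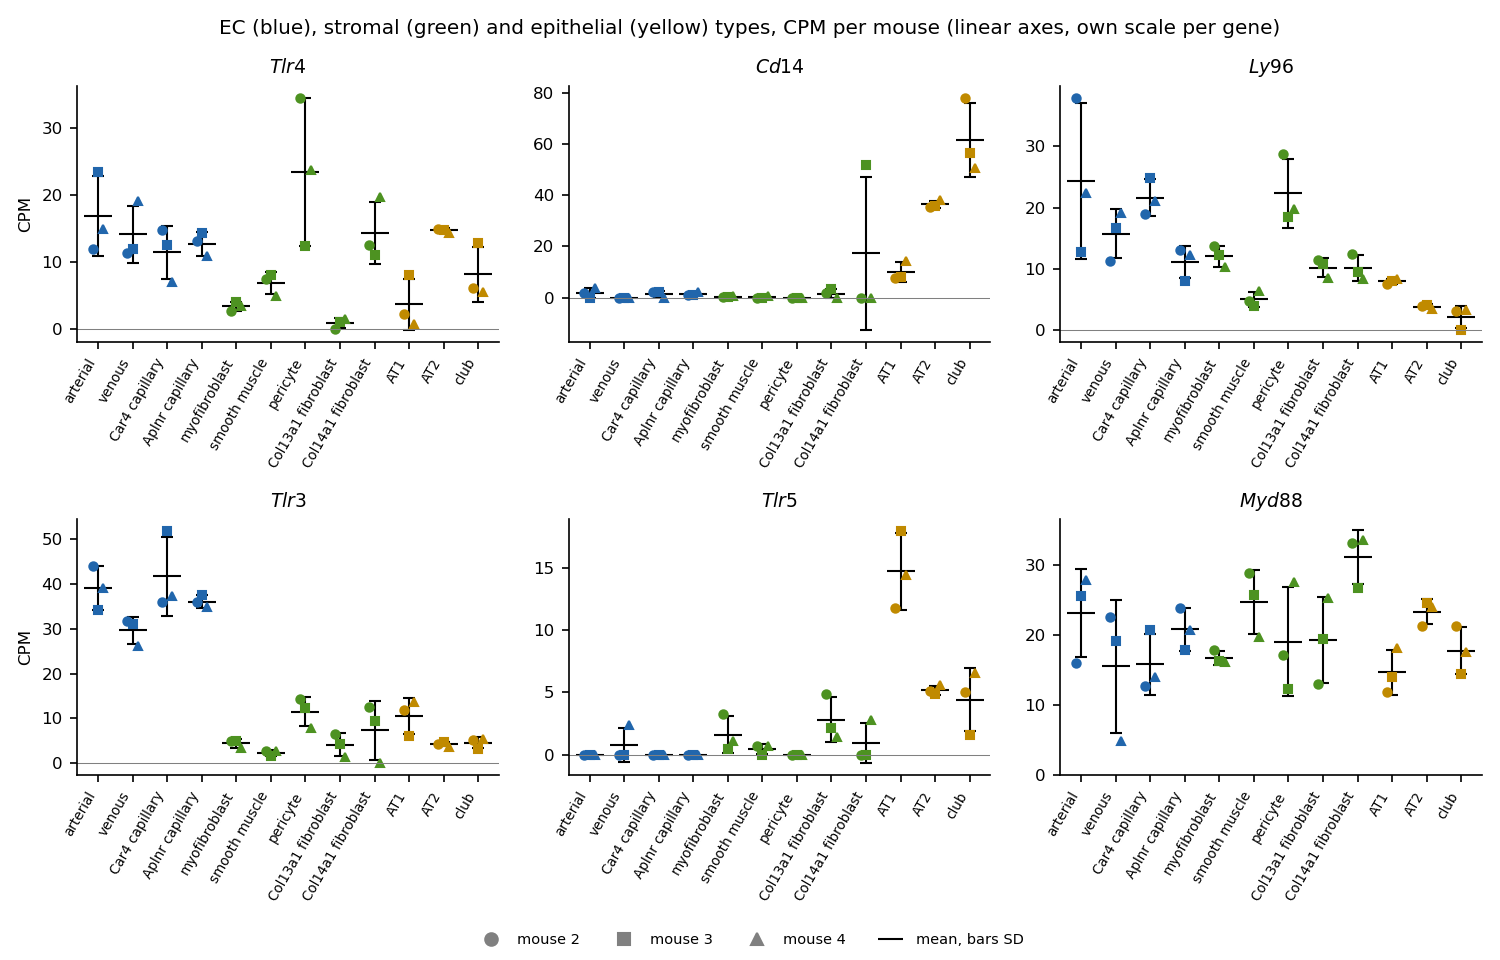
CPM of 6 of the genes in EC, stromal, and epithelial types, with 1 point per mouse and the mean of the mice. *Tlr3* is shared by the EC types. *Tlr4* has its highest mean in pericyte-like cells (23.5 CPM), and the ranges of arterial-like ECs (16.8 CPM) and AT2-like cells (14.7 CPM) overlap theirs. *Tlr5* is high in AT1-like cells, and *Cd14* in club- and AT2-like cells, with mouse 3 alone above 0 for *Cd14* in *Col14a1* fibroblast-like cells.

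UMIs of the parts of the lipopolysaccharide receptor were also counted within single cells. Of 1051 AT2-like cells, 210 had a *Tlr4* UMI, 58 a *Ly96* UMI, and 408 a *Cd14* UMI, with *Tlr4* and *Ly96* in 10 cells and all 3 in 3 cells. *Tlr4* and *Ly96* were together in 11 of 501 *Aplnr* capillary-like, 7 of 157 arterial-like, and 6 of 169 *Car4* capillary-like ECs. Among alveolar macrophage-like cells, 2 of 71 had both, and each also had *Cd14*. None of 466 neutrophil-like cells had both, with 28 and 19 positive for *Tlr4* and *Ly96*, which allows a share of cells with UMIs of both of up to 0.644%. At these depths a cell without a UMI may still express the gene, and whether the genes share cells more or less often than their separate shares would give was not tested.

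Genes of the same pathway were counted from 7 lists (63 genes). In neutrophil-like cells, 10 of 11 tested genes that the receptors induce were higher and 0 lower, with a median fitted log2 fold change of 5.89 where all genes had -0.00 and 23.8% of all genes were higher and 11.8% lower. *Il1b*, a cytokine, was at 15472 CPM there and *Cxcl2*, a chemokine that draws neutrophils, at 13303 CPM. Of 8 inhibitors 7 were higher, among them *Nfkbia*, which holds NF-κB in the cytoplasm, and *Sigirr* was lower (median 2.94). Interstitial macrophage-like cells had 0 of the 11 induced genes called, but 5 of 9 other receptors and accessory molecules were higher (*Tlr8*, *Tlr13*, *Cd36*, *Ly86*, and *Cd180*, median 4.04, all genes -0.01), where 9.74% of all genes were higher. Alveolar macrophage-like cells were also higher in 4 of these 9 genes (*Tlr8*, *Tlr13*, *Cd36*, and *Ly86*, median 0.59, all genes -0.16). They had 7 of 11 induced genes higher and 0 lower (median 2.49), where 13.7% and 9.75% of all genes were. *Unc93b1*, which escorts the endosomal receptors, was at 710 CPM in interstitial macrophage-like, 580 in B cell-like, and 416 in dendritic-like cells and at 12.3 in AT2-like cells. The first 3 are the types in which *Tlr7*, *Tlr9*, or *Tlr3* had its highest mean. *Unc93b1* was also called higher in alveolar macrophage-like cells than in the mean of the other immune types, and its match with these receptors was not tested. In B cell-like cells 8 of 14 kinases and ubiquitin ligases were higher and 0 lower, where 34.4% of all genes were higher (median 0.55, close to the 0.40 of all genes), and in dendritic-like cells 5 of 6 trafficking and folding genes were higher (median 0.92, all genes 0.17, with 20.6% of all genes higher). *Lbp*, the serum protein that passes lipopolysaccharide to CD14, was at 137 CPM in AT2-like and 101 CPM in *Aplnr* capillary-like cells and was higher in both than in the mean of the other types of their class (1.64, SE 0.13, edgeR adjusted p = 5.48e-15, and 0.97, SE 0.18, edgeR adjusted p = 8.56e-05).

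The lists were also counted in immune cells against ECs, where 35.3% of all genes were higher and 34.1% lower, with a median of 0.02. There 10 of 11 induced genes were higher (median 5.34), 10 of 14 kinases and ubiquitin ligases (0.69), 6 of 8 inhibitors (1.82, with *Sigirr* and *Tollip* lower), 6 of 7 transcription factors (1.02, with *Rela* lower), and 3 of 4 TIR adaptors (3.14, or 2.44 with genes without a UMI at their bound). The 6 trafficking and folding genes divided into 3 higher and 3 lower (0.26), and of 7 other receptors and accessory molecules 5 were higher and *Lbp* and *Cd36* lower (4.99).

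Over the 20 types, the genes whose log2(CPM + 10) was most like that of a member were named for the 9 genes with at least 100 UMIs, each with 3 genes. For *Tlr2* they were *Mcemp1*, *Cd300lf*, and *Slc15a3* (Pearson's r between 0.981 and 0.984) and for *Cd14* *Siglece*, *Rnf149*, and *Tpd52* (0.898 to 0.917). *Tlr1* was most like *Gm8369*, *Rhoh*, and *Rasgrp1* (0.920 to 0.946), *Myd88* like *Fcgr3*, *Lilrb4a*, and *Emilin2* (0.936 to 0.949), and *Tlr3* like *Zbtb46* (0.936), a marker used to name dendritic-like cells, *Gm38399*, and *Cxx1b*. *Tlr7* was most like *Clec4a3* (0.910), *Mrc1*, a marker used to name interstitial macrophage-like cells, and *Esrra*. *Tlr5* was most like *Scnn1a*, *Gys1*, and *Ovol2* (0.827 to 0.845) and *Ly96* like *Tfe3*, *Vps11*, and *Tmem203* (0.807 to 0.827). *Tlr4* had the weakest likeness, with *Atp6v1e1*, *Zfand2a*, and *Lonrf1* (0.721 to 0.739). The 20 points share 3 libraries and differ in depth, and the genes were picked as the highest of all.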

How the data were processed

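Whole-lung scRNA-Seq of 3 mice was analyzed. The authors made 10x 3′ v3 libraries and processed them with Cell Ranger v3.0.2 on mm10 (submitters' processing notes), and the deposited files hold the UMI counts of each gene in each cell as they came, not normalized. The annotation release of the counting is not given in the sources used here. The members and lists were chosen with earlier results of these data known.

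SCTransform (sctransform 0.4.2 under Seurat 5.3.0 and R 4.3.3) normalized the kept cells. Clustering used 30 principal components and a resolution of 0.8, and the 10 genes and other list genes were taken out of the 3000 variable genes. Clusters were named where the mean log2 fold of a marker list was at least 1. Doublets were scored with scanpy 1.11.5 (Python 3.11.15) and marked at 0.8% per 1000 cells (46, 54, and 56 cells) but kept. The UMIs of a class in a mouse (12 sums) or of a type in a mouse (60 sums, none of under 10 cells) were added up. edgeR 4.0.16 with filterByExpr and TMM then gave quasi-likelihood tests of 14210 and 13062 genes, adjusted by the Benjamini-Hochberg method. Cells were thinned to 1000 UMIs by their expected shares, leaving out shallower cells. The 10 genes are named in every comparison, of each pathway list the 3 most abundant genes or up to 5 called in a direction, and the 3 most similar genes by correlation. For induced genes and inhibitors with more than 5 called, those named are among the most abundant or are the exceptions.

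No library was a copy of another (chi-square between 8.75 and 38.4 per degree of freedom). The mouse number pairs sums of the same animal. Their deviations from the class means, over 3836 genes, had r from 0.122 to 0.525 in the 18 pairs, and a mouse block was fitted as well. On simulated counts, edgeR recovered 96.2% of 182 changed genes (log2 fold 2) for immune cells against ECs (12586 genes), and 79% of 138 for neutrophil-like against B cell-like cells (8545 genes). Alternatives were DESeq2 1.42.0, no TMM, no filter on low counts, a stricter cell filter, log-normalization, leaving out doublets, resolutions of 0.4 and 1.2, the members among the variable genes, equal weight per type, the mouse block, and leaving out each mouse.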

Additional observations from a re-analysis of the deposited data

How the results depend on the processing

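Of 1454 values of single genes under the alternatives, from 108 results of the class comparisons and of neutrophil-, macrophage-, dendritic-, and B cell-like cells, 1341 kept their direction and side of the threshold, 57 lost the call, 42 gained one, and 14 turned. With equal weight per type, 8 members were tested in place of 10, and the shares of all genes called are not given here. The count of called members fell from 8 to 3 in immune cells against ECs (1 higher and 2 lower). It fell from 9 to 2 against stromal cells (1 and 1) and from 9 to 4 against epithelial cells (2 and 2). The log2 fold changes of *Cd14* and *Tlr3* against epithelial cells became -1.51 and -3.08 and those of *Tlr3* and *Tlr4* against stromal cells -2.51 and -0.39. This setting gives a type without UMIs the same weight as the B cell-like cells.

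For B cell-like cells, in place of 2 members higher and 1 lower, DESeq2 called 1 higher and 4 lower. The sum of all other immune cells (chosen after the data had been seen) gave 1 higher and 6 lower. For dendritic-like cells, in place of 1 higher and 0 lower, DESeq2 called 1 and 1, log-normalization 3 and 0, and the sum 2 and 4. The shares of all genes called in these settings are not given here. Against that sum, the log2 fold change was -0.68 for *Cd14* in alveolar macrophage-like cells, -3.63 for *Cd14* and -0.99 for *Tlr2* in dendritic-like cells, -1.84 and -2.38 for *Tlr1* in interstitial macrophage-like and neutrophil-like cells, and -1.20 for *Tlr4* and -0.22 for *Tlr7* in B cell-like cells. Neutrophil-like cells are part of the sum. With log-normalization *Tlr7* was at 4.61 in ECs against stromal cells and at 2.45 in dendritic-like cells, for which the cause was not tested.

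With each mouse left out in turn, alveolar against interstitial macrophage-like cells had 1 call in place of 3. The log2 fold change of *Cd14* ranged from -1.68 to 2.10 in ECs against stromal cells and from -1.73 to 6.28 in *Col14a1* fibroblast-like cells, with the sign turned without mouse 3. Other counts ranged from 7 to 8 for immune cells against ECs and against stromal cells, 2 to 3 for B cell-like cells, and 3 to 5 for ECs against stromal cells. *Tlr5* in immune cells against ECs was lost without mouse 3 (edgeR adjusted p = 0.0866). *Tlr4* in immune against stromal cells was lost without mouse 3 (0.40), and in ECs against stromal cells *Ly96* without mouse 4 (0.49) and *Tlr5* without mouse 2 (-2.35).

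With the mouse as a replicate block, immune cells were lower than ECs in 2 members in place of 1, and ECs lower than epithelial cells in 4 in place of 3. In stromal against epithelial cells *Tlr7* missed the threshold (-3.29, edgeR adjusted p = 0.0543) and *Tlr3* passed it. The pairing changed no other count of calls. Depth limits *Tlr9*, *Tlr7*, and *Tlr5* most, with 56, 141, and 179 UMIs. Of 1150 CPM values 43, and of 1350 shares of cells 223, moved by more than 1 SD between mice.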

Other observations

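The 6 unnamed clusters (858 cells) enter no comparison above. A cluster of dividing cells (136 cells, median 8565.5 UMIs) had 16.2 CPM of *Myd88*, 8.93 of *Tlr3*, 7.81 of *Cd14*, and 7.25 each of *Tlr1* and *Ly96*. A cluster led by *Hpgd* and *Sox7* (457 cells, median 844 UMIs) had 37.4 CPM of *Myd88*, but from 17 UMIs, and no UMI of *Tlr1*, *Tlr5*, *Tlr7*, or *Tlr9*. A cluster led by cardiac genes (158 cells) had 39.0 CPM of *Myd88* from 6 UMIs.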
